A study of Mus musculus with 3 samples.

Results

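A set of 10 transcription factor genes that drive or restrain the cell cycle, E2f1 to E2f8, Mybl2 and Foxm1, was followed across 3 microarrays of a mouse dental epithelial cell line. They were chosen by name, as every probe whose gene name in the scanner files is one of these symbols, which gave 10 of 24812 named genes and 20 of 56598 probes. CLDE is a cell line derived from the cervical loop, the region of the mouse incisor that keeps renewing dental epithelium. All 3 cultures were grown in the same serum-free keratinocyte medium, went through transfection and were harvested 72 h later. The siKrt15 culture received an siRNA duplex against keratin 15, the siNeg culture non-targeting control siRNAs, and the mock culture a mock transfection. The title of the series names the question, whether keratin 15 controls proliferation in the outer enamel epithelium.

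Each group is 1 array of 1 culture of 1 line, so there is no spread between replicates, no test was possible and no p-value is given. The errors printed are standard deviations from the scanner's error model, which cover the spot measurement and not differences between cultures. For a gene with several probes the error is the average of the single-probe SDs, which is not the SD of the mean over probes. For siNeg and siKrt15 the labels contradict each other, because the description and treatment field give the opposite siRNA to the title and source name. Groups follow the titles, so siKrt15 means the array titled siKrt15, and with the other labels every sign between siKrt15 and siNeg would turn and the values of siKrt15 and siNeg against mock would change places. Krt15 itself, the keratin that the siRNA targets, had a processed signal of 267.2 on the siKrt15 array, 1647 on the siNeg array and 2638 on the mock array. It was lower by 2.88 ± 0.20 on the log2 scale than in siNeg and ranked 17120 of 17121 measured genes, which goes with the titles. The controls differed in Krt15 as well, by −0.60 ± 0.20 in siNeg minus mock, rank 17274 of 17416.

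E2F factors bind the promoters of genes needed for DNA replication. E2f1, E2f2 and E2f3 are known as activators that are held in check by the retinoblastoma protein until a cell commits to S phase. E2f4 and E2f5 act mainly as repressors together with the related pocket proteins p107 and p130, E2f6 represses without a pocket protein, and the atypical E2f7 and E2f8 repress without a DP partner and are themselves E2F targets. Mybl2, or B-Myb, joins the MuvB core complex in S phase, and Foxm1 is then recruited and activates genes for mitosis. In the incisor, the transit-amplifying cells next to the cervical loop stem cells go through this programme before they become ameloblasts.

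Promoter sequences are shown for members that went furthest and least far from the controls: E2f2 and Mybl2, both over 2-fold higher in siKrt15, E2f7, whose probes disagreed, and E2f3, the activator closest to its control level. RefSeq promoter windows on GRCm38.p6 matched 7 of the 10 genes, all but E2f4, E2f5 and Foxm1. Capitals mark matches, on either strand, to the E2F motifs TTTNNCGC, GGCGGGA and TTTGGCG, to the cell-cycle homology element TTTGAA and to the CCAAT box. All are written 5′ to 3′ on the strand of the gene, and end at the base before the annotated start.
E2f2, chr4:136172024-136172273, plus strand: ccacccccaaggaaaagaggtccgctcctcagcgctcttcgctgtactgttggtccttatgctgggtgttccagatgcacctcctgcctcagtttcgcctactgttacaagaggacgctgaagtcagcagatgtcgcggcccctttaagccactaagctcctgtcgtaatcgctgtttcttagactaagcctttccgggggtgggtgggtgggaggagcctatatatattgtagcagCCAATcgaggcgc
Mybl2, chr2:163054605-163054634, plus strand, the last 30 bases: gcggcgccgacgcacttGGCGGGAgatagg
E2f7, chr10:110745189-110745438, plus strand: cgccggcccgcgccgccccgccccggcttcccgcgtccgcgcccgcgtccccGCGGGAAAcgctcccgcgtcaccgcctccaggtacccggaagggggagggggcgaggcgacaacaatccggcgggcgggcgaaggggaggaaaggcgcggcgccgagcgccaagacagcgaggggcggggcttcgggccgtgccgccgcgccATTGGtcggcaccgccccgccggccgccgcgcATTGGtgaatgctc
E2f3, chr13:29986064-29986313, minus strand: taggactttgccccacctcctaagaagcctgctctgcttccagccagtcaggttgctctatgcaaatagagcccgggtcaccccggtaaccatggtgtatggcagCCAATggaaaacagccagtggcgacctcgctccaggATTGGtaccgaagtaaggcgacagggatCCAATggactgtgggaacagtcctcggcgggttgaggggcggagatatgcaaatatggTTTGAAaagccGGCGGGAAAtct
The Mybl2 window lay inside the annotated gene, so only its last 30 bases are shown. This stretch held GGCGGGA from 13 to 7 bases before the start. The E2f2 window held none of the E2F letters and a CCAAT box from 13 to 9 bases before the start. The E2f7 window held TTTNNCGC on the opposite strand, from 198 to 191 bases before the start, and 2 CCAAT boxes. In the E2f3 window GGCGGGA and, on the opposite strand, TTTNNCGC shared bases between 12 and 4 before the start, with TTTGAA from 23 to 18 and 3 CCAAT boxes further out.

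Over all 32851 promoter windows of 250 bases, 13.63% held at least 1 of the E2F motifs, 15.99% held TTTGAA and 33.85% held CCAAT. Taken singly, GGCGGGA was in 9.753% of windows, TTTNNCGC in 4.28% and TTTGGCG in 1.257%. The 7 members had 9 windows, because E2f2 and E2f3 each have a second annotated start, and 4 of the 9 windows held an E2F motif. The windows of E2f1, Mybl2 and E2f8 and the second windows of E2f2 and E2f3 lay wholly inside the annotated gene. Such windows were not left out of the share over all windows. The Mybl2 window and the second E2f3 window are among those with an E2F motif. These matches describe letters in a window and do not locate a bound site.

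On all 3 arrays, each of the 10 genes had at least 1 probe well above background. Signals below are the scanner's processed signal, a background-subtracted brightness in arbitrary units. Differences are on the log2 scale after the 75th percentile of each array was subtracted, and those of a gene are means over its probes measured on both arrays. Signals of different probes are not compared, since each probe has its own brightness. In bulk RNA, a different number of dividing cells and a different amount of RNA per dividing cell cannot be told apart.

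Of the 10 genes, E2f2, Mybl2 and Foxm1, 3 in all, exceeded their siNeg level at least 2-fold in siKrt15. Over all genes 1.70% (291 of 17121) passed that threshold. The same 3 genes passed it in siKrt15 against mock, where 2.18% of genes (374 of 17130) passed. These comparisons share the siKrt15 array and are not independent. Both thresholds together were passed by 252 of 16916 genes, or 1.49%. No member was 2-fold lower in siKrt15, against 2.0% of all genes (342 of 17121) below siNeg and 1.24% (213 of 17130) below mock. Between siNeg and mock 0 of the 10 genes differed 2-fold in either direction, where 0.356% of all genes were higher and 0.0459% lower.

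**Figure D1:**
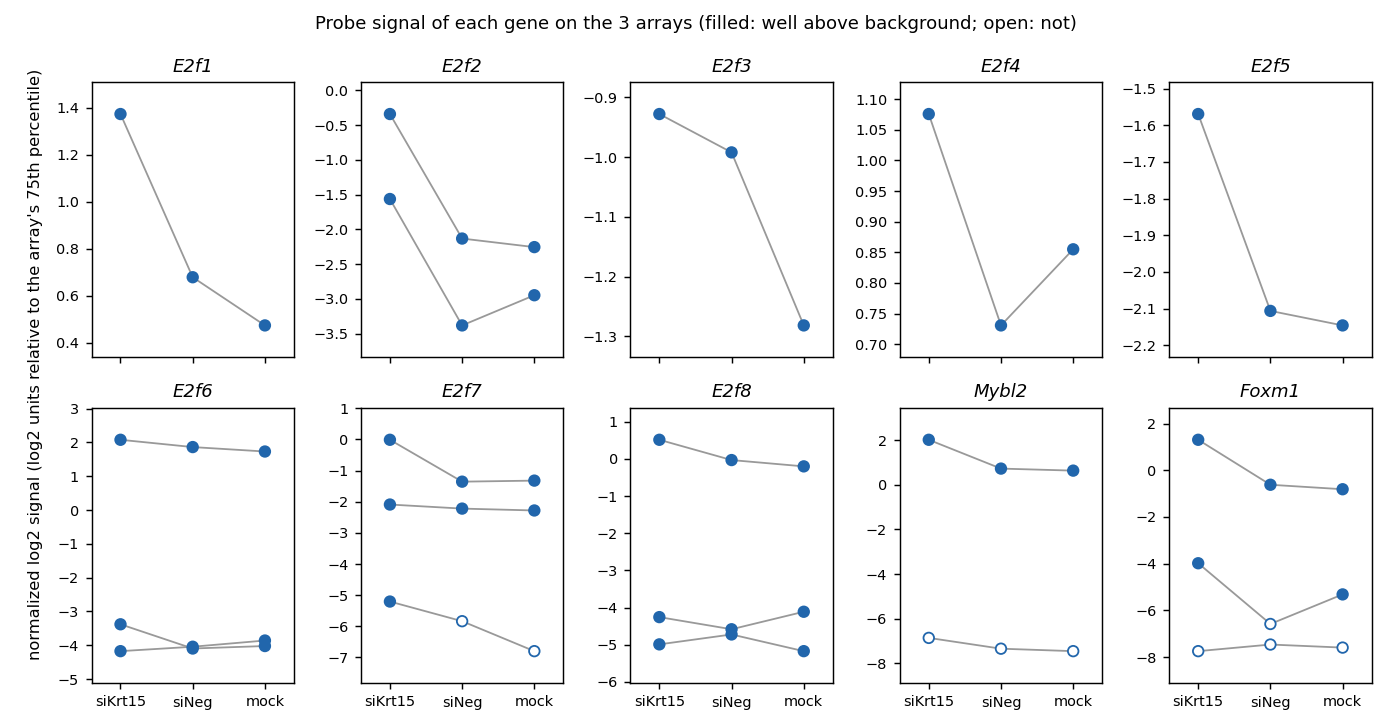
Normalized log2 signal of every probe of the 10 genes (vertical axis, log2 units relative to the 75th percentile of the array, with its own range in each panel) on the siKrt15, siNeg and mock arrays; filled points are well above background and open points are not. The highest line of each panel is at its top on the siKrt15 array, with E2f2, Mybl2 and Foxm1 standing 1.29 or more above siNeg, while some dim probes of E2f6, E2f8 and Foxm1 are flat or cross.

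Among the activators, E2f2 stood apart from E2f1 and E2f3. E2f2 has 2 probes, which lie close together on mm9 (chr4:135750358-135750417 and chr4:135750562-135750621). The first had signals of 73.1 in siKrt15, 17.3 in siNeg and 24.8 in mock cells. The second had signals of 170.7 in siKrt15, 41.2 in siNeg and 40.1 in mock. Both were about equally far above siNeg, and the siKrt15 signal was the highest on both. The mean difference from siNeg was 1.80 ± 0.22 (error-model SD), or 3.49-fold, with 1.82 and 1.79 for the probes. The mean difference from mock was 1.65 ± 0.21, or 3.14-fold, with 1.38 and 1.91 for the probes. E2f2 ranked 51 of 17121 genes against siNeg and 111 of 17130 against mock. Between siNeg and mock it differed by −0.16, beside an average single-probe SD of 0.22. Its probes went opposite ways there, by −0.43 ± 0.23 and 0.12 ± 0.21.

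E2f1, the founding member of the family and a target of its own activity, was higher in siKrt15 but under 2-fold. Its single probe (mm9 chr2:154385798-154385857, minus strand) gave 559.8 in siKrt15, 288.8 in siNeg and 265.4 in mock cells. The difference was 0.69 ± 0.20 from siNeg and 0.90 ± 0.20 from mock, with 0.21 between siNeg and mock. E2f1 ranked 621 and 467 from the top in these 2 comparisons with siKrt15, in the highest 3.62% and 2.72% of genes. Its distance from siNeg was larger than the distance between the controls.

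E2f3, the remaining activator, hardly differed from siNeg. Its probe crosses an intron, since its 60 bases cover 1087 bases of genome on mm9 (chr13:30001985-30003071, minus strand), and it is shown because the low difference rests on this probe alone.
E2f3 probe: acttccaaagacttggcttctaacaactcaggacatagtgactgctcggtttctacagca
The probe gave 113.6 in siKrt15, 90.7 in siNeg and 78.6 in mock cells. The difference was 0.06 ± 0.21 from siNeg and 0.35 ± 0.21 from mock, and siNeg was 0.29 above mock. The step between the 2 controls was therefore larger than the step between siKrt15 and siNeg. The scanner files assign it to 1 RefSeq transcript of E2f3, at position 1496.

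The repressor E2Fs stood above both controls in siKrt15 by less than 2-fold, with medians of 0.35 against siNeg and 0.25 against mock over 5 genes. E2f4, the most abundant repressor in many resting cells, had signals of 455.4 in siKrt15, 299.3 in siNeg and 345.6 in mock. Its differences were 0.35 ± 0.20 and 0.22 ± 0.20, and mock lay above siNeg by 0.12. E2f5, its closest relative, had 72.8 in siKrt15, 41.9 in siNeg and 43.2 in mock cells. The E2f5 differences of 0.54 ± 0.21 and 0.58 ± 0.21 were larger than the error-model SD, and the controls lay 0.04 apart.

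E2f6, which works with Polycomb proteins, has 3 probes that did not move together. The brightest gave 911.7 in siKrt15, 655.5 in siNeg and 633.9 in mock, a difference of 0.22 and 0.35 from the controls. A dimmer probe gave 20.8 in siKrt15, 10.6 in siNeg and 11.8 in mock cells. The remaining one was near its control level, with 12.0 in siKrt15, 10.9 in siNeg and 13.2 in mock, or −0.13 and −0.31 after normalization. The mean over the 3 probes was 0.27 ± 0.24 against siNeg and 0.23 ± 0.24 against mock. The ± is the average SD of a single probe and not the error of this mean.

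Of the atypical repressors, E2f7 had the widest disagreement between probes. The probe at mm9 chr10:110224331-110224390 gave 214.6 in siKrt15, 70.5 in siNeg and 76.5 in mock. That is a difference of 1.34 from siNeg and 1.31 from mock. The probe at chr10:110219255-110219314 gave 50.8 in siKrt15, 38.7 in siNeg and 39.3 in mock, a difference of only 0.13 and 0.19. The other E2f7 probe was well above background only in siKrt15, with 5.9 against 3.2 in siNeg and 1.7 in mock. It was therefore at least 1.09-fold and at least 1.14-fold higher, these bounds being set by the lowest signal well above background on each control array. The mean over the 2 measured probes was 0.74 ± 0.21 against siNeg and 0.75 ± 0.21 against mock, so whether E2f7 counts as 2-fold higher depends on the probe. Per the scanner files, these 2 probes lie on the same RefSeq transcript, the flatter one at position 2338 and the other at position 5366, and the dim probe is assigned to an Ensembl transcript.

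E2f8, which often acts as a pair with E2f7, was led by its brightest probe too. That probe gave 309.0 in siKrt15, 176.7 in siNeg and 166.4 in mock, a difference of 0.55 and 0.72. The other E2f8 probes were dim. The first of these gave 6.8 in siKrt15, 6.8 in siNeg and 5.3 in mock, and the second 11.3 in siKrt15, 7.5 in siNeg and 11.0 in mock. With these the gene's mean was 0.20 ± 0.30 against siNeg and 0.25 ± 0.30 against mock. The ± is the average SD of a single probe and not the error of this mean.

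The late factors were the highest class. Mybl2 is measured by a probe at mm9 chr2:162909345-162909404, which gave 874.7 in siKrt15, 298.5 in siNeg and 296.8 in mock cells. The controls were almost equal, 0.09 apart, and siKrt15 lay 1.29 ± 0.20 above siNeg (2.45-fold) and 1.38 ± 0.20 above mock (2.61-fold). Mybl2 ranked 168 of 17121 and 176 of 17130 genes. Its second probe, for a predicted variant, was not well above background on any array, with 1.9 in siKrt15, 1.1 in siNeg and 1.1 in mock.

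Foxm1 had the largest difference of the 10 genes in both comparisons, except that E2f2 exceeded it when dim probes were kept (1.80 beside 1.41 against siNeg, and likewise against mock) and Mybl2 with normexp against mock (1.26, beside 0.90). Its brightest probe (mm9 chr6:128325837-128325898) gave 533.3 in siKrt15, 117.2 in siNeg and 108.7 in mock. This probe lay 1.93 ± 0.20 above siNeg, or 3.80-fold, and 2.12 above mock, with 0.19 between the controls. A second probe, upstream of it on the plus strand (chr6:128323866-128323925), gave a dimmer reading in the same direction and is shown because it is the only other Foxm1 probe above background.
Foxm1 probe: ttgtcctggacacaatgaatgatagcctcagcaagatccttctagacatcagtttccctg
It gave 13.7 in siKrt15, 1.9 in siNeg and 4.8 in mock, and was not well above background in siNeg. It was at least 2.55-fold higher in siKrt15 than in siNeg, and 1.33 higher than in mock cells. The remaining Foxm1 probe was not well above background on any array, at 1.0 on each. Over its measured probes Foxm1 was 1.93 above siNeg (1 probe, rank 40) and 1.73 ± 0.28 above mock (2 probes, 3.31-fold, rank 94).

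**Figure D2:**
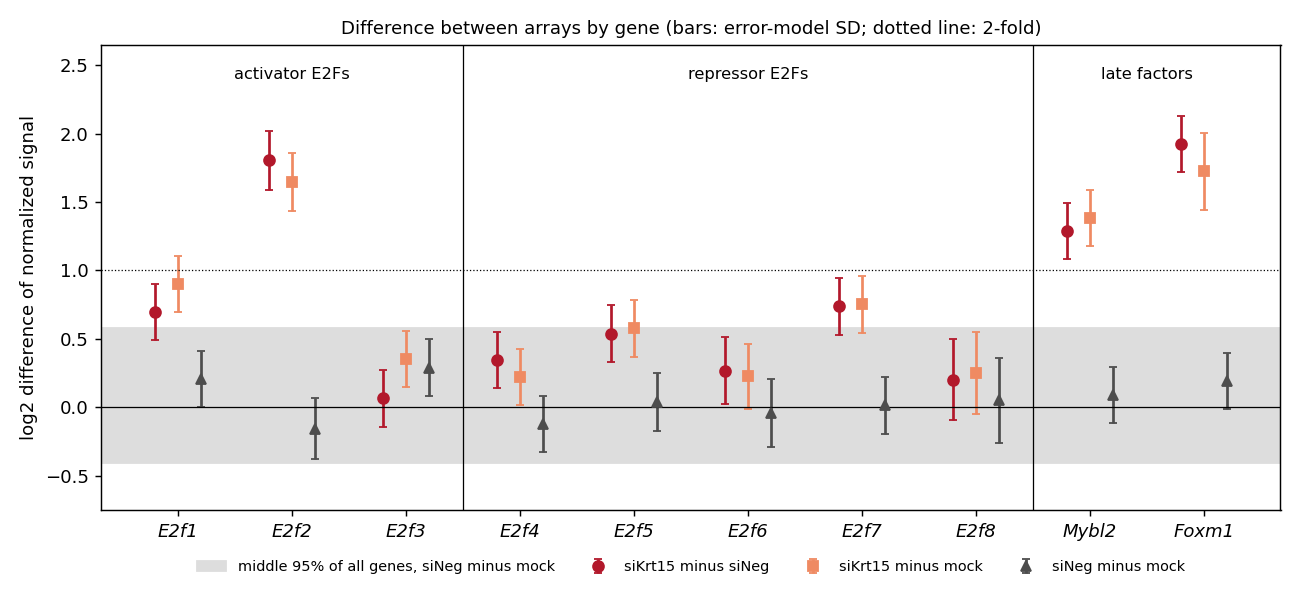
Log2 difference of normalized signal for each gene (vertical axis) in siKrt15 minus siNeg, siKrt15 minus mock and siNeg minus mock. Bars are the error-model SD, averaged over a gene's probes. The grey band is the middle 95% of all genes in siNeg minus mock and the dotted line is 2-fold. E2f2, Mybl2 and Foxm1 lie above the dotted line in both comparisons with siKrt15, E2f1 and E2f7 lie between the band and the line, and all 10 genes lie within the band in siNeg minus mock.

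Direction was the same across the group. All 10 genes were above 0 in siKrt15 minus siNeg, where 39.4% of all genes were, and all 10 in siKrt15 minus mock, where 41.9% were. In siNeg minus mock 7 of the 10 were above 0, against 55.5% of all genes. The members' median was 0.62 against siNeg, beside −0.08 over all genes, and 0.66 against mock, beside −0.06 over all genes. Between siNeg and mock the members' median was 0.04, beside 0.02 over all genes.

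The middle 95% of all genes in siNeg minus mock ran from −0.41 to 0.58, which shows how far 2 control arrays can differ. In both comparisons with siKrt15, 5 of the 10 genes lay above that range: E2f1, E2f2, E2f7, Mybl2 and Foxm1. Of all genes 4.88% did so against siNeg and 5.95% against mock. At 1.5-fold the same 5 genes were counted, where 4.80% and 5.83% of all genes were. The differences over all genes were also wider with siKrt15, with an SD of 0.42 against siNeg and 0.43 against mock, compared with 0.23 between siNeg and mock.

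By class, the late factors had a median of 1.61 against siNeg and 1.55 against mock, the activators 0.69 and 0.90, and the repressors 0.35 and 0.25. The 3 classes hold 2, 3 and 5 genes. Mybl2, the lower late factor, lay above the highest repressor, E2f7, by the mean over probes. The activators were not a uniform class, since E2f2 lay with the late factors and E2f3 below every repressor against siNeg. Among the repressors, the canonical E2f4, E2f5 and E2f6 had medians of 0.35 and 0.23, and the atypical E2f7 and E2f8 0.47 and 0.50. As class means of normalized log2 signal on each array, over probes measured on all 3 arrays and so with 1 probe for Foxm1, the late factors were at 1.66 in siKrt15, 0.05 in siNeg and −0.09 in mock cells. The activators were at −0.17 in siKrt15, −1.02 in siNeg and -1.14 in mock cells. The repressors were at -1.26 in siKrt15, −1.67 in siNeg and -1.66 in mock cells. The controls lay close together in every class.

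Genes that work with these factors were set beside them. The DP partners and pocket proteins, 5 genes, had medians of 0.24 against siNeg and 0.34 against mock. At 2-fold there were 0 of 5, where 1.70% of all genes were higher against siNeg and 2.18% against mock. Tfdp1, the main DNA-binding partner of the E2Fs, differed by 0.36 and 0.34, and Tfdp2 by 0.45 and 0.44. Rb1, the retinoblastoma protein that restrains the activators, differed by −0.23 and −0.22. Rbl1, which encodes p107 and is itself an E2F target, differed by 0.08 and 0.35, with its probes between −0.15 and 0.52 against siNeg. Rbl2, which encodes p130, differed by 0.24 and 0.21. None of these 5 lay outside the range seen between the controls.

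The MuvB core, the complex that B-Myb joins, was close to its control level. Its 5 genes had medians of 0.03 against siNeg and 0.00 against mock. Lin54, the DNA-binding subunit, differed by 0.25 and 0.34, Lin37 by 0.03 and 0.00, Lin52 by −0.24 and −0.04 and Rbbp4, a histone-binding subunit shared with other complexes, by −0.19 and −0.21. Lin9 had a mean of 0.16 and 0.00 over probes that ranged from −0.32 to 0.99 against siNeg. No MuvB gene was 2-fold higher, 0 of 5, where 1.70% of all genes were against siNeg and 2.18% against mock.

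Of 32 G1/S genes known as E2F targets, 31 were measured, 10 were at least 2-fold higher in siKrt15 than in siNeg and 14 than in mock, and 0 were 2-fold lower. Their median was 0.77 against siNeg and 0.80 against mock. In these comparisons 30 and 29 of 31 were above 0, where 39.4% and 41.9% of all genes were. Mcm5, a subunit of the replicative helicase, gave 618.8 in siKrt15, 133.2 in siNeg and 132.1 in mock, a difference of 1.96 and 2.05. Orc1, of the origin recognition complex, differed by 1.66 and 1.41 on 1 of its 3 probes, dim in siNeg (8.9) and mock (11.2). Cdc6, which loads the helicase, differed by 1.25 and 1.45, with probes at 0.70 and 1.81 against siNeg. Rrm2, a subunit of ribonucleotide reductase, differed by 1.24 and 1.12. The lowest was Slbp, which binds histone mRNA, at −0.13 and −0.36. In siNeg minus mock the median was 0.04 and 0 of 31 were 2-fold higher, where 0.356% of all genes were.

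Of 30 G2/M genes known as targets of the B-Myb-MuvB complex and Foxm1, all 30 were measured and above 0 in both comparisons. The shares of all genes above 0 were 39.4% against siNeg and 41.9% against mock. At least 2-fold higher were 25 against siNeg and 25 against mock, where 1.70% and 2.18% of all genes were. In the list 0 were 2-fold lower, where 342 of 17121 genes were against siNeg and 213 of 17130 against mock. The median was 1.46 against siNeg and 1.65 against mock. In siNeg minus mock it was 0.15, and 0 genes were 2-fold higher or lower, where 0.356% and 0.0459% of all genes were. Ttk, a spindle checkpoint kinase, was measured in both comparisons by 1 of its 4 probes. That probe gave 61.8 in siKrt15, 10.1 in siNeg and 10.9 in mock, a difference of 2.35 and 2.32. Kif11, a spindle motor, differed by 2.19 ± 0.31 and 2.44 ± 0.33, with dim signals of 6.4 in siNeg and 5.7 in mock. Ccna2, or cyclin A2, differed by 2.08 and 2.42, and Birc5, or survivin, by 2.04 and 2.18. The lowest was Cdc25b, a phosphatase that activates CDK1, at 0.33 and 0.18. The G2/M median was above the G1/S median in both comparisons with siKrt15. Whether either list follows the factors was not tested.

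**Figure D3:**
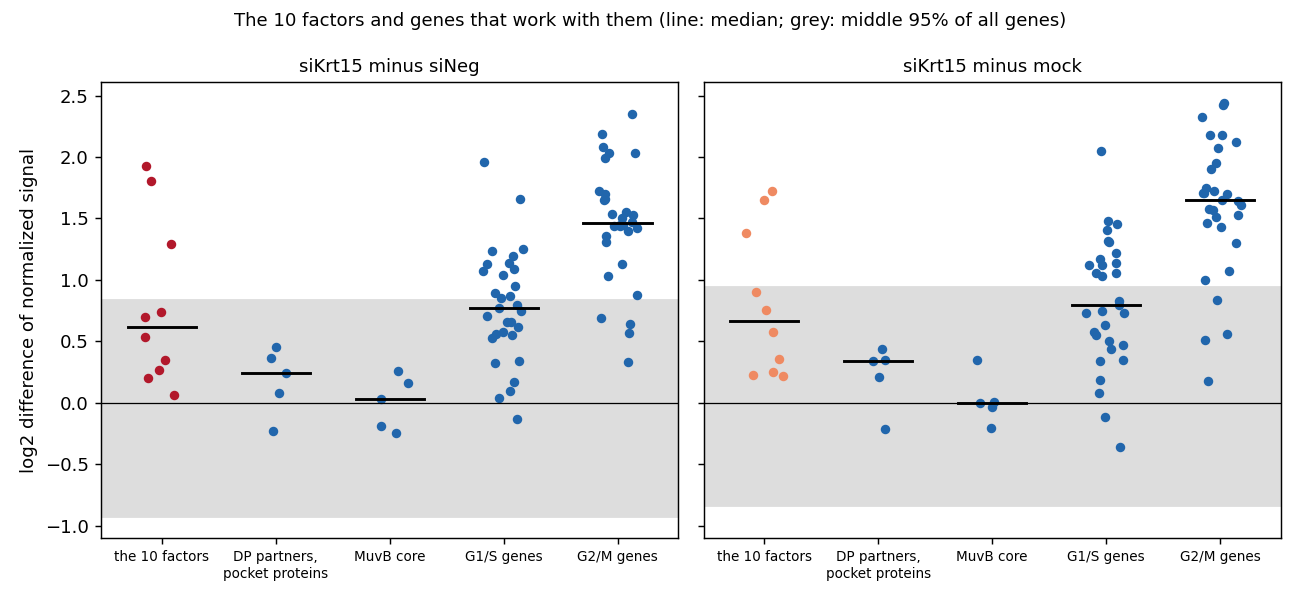
Log2 difference of normalized signal (vertical axis) for the 10 factors, the DP partners and pocket proteins, the MuvB core, G1/S genes and G2/M genes, in siKrt15 minus siNeg (left) and siKrt15 minus mock (right); points are genes, lines are medians and the grey band is the middle 95% of all genes in that comparison. The medians run 0.62, 0.24, 0.03, 0.77 and 1.46 on the left and 0.66, 0.34, 0.00, 0.80 and 1.65 on the right.

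The other Myb family genes differed from Mybl2. Mybl1, or A-Myb, gave 232.7 in siKrt15, 136.9 in siNeg and 143.3 in mock, a difference of 0.50 and 0.52. Myb gave 13.2 in siKrt15, 19.9 in siNeg and 9.64 in mock on its measured probe. Its difference was −0.86 ± 0.25 from siNeg but 0.27 ± 0.29 from mock, because siNeg lay 1.13 above mock. The Myb signal was dim, and the controls disagreed by more than siKrt15 differed from either.

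Markers of several cell types were above background. All 7 markers of basal and dental epithelium were well above background on each array, Krt15 included, with a summed signal of 211534 in siKrt15, 194759 in siNeg and 195098 in mock, most of it from Krt5 and Krt14. After normalization 6 of the 7 were lower in siKrt15 than in siNeg, with a median of −0.16, and 5 of the 7 were lower than in mock, with a median of −0.18. The 6 include Krt15, the siRNA target, and Krt5 and Krt14, at −0.11 ± 0.20 and −0.16 ± 0.20 from siNeg. Most genes were lower too, 10383 of 17121 against siNeg and 9945 of 17130 against mock, with all-gene medians of −0.08 and −0.06. Of 8 mesenchymal markers 6 were well above background, with a summed signal of 304.6 in siKrt15, 328.6 in siNeg and 339.2 in mock, and Pdgfrb and Lum were near background. Of 4 endothelial markers 1 was, Pecam1, and Cdh5, Kdr and Tek were near background. Of 6 blood and immune markers 5 are on the array under their symbols and all 5 were well above background, with a summed signal of 5512 in siKrt15, 5666 in siNeg and 6113 in mock cells. After normalization the measured mesenchymal markers had medians of −0.55 against siNeg and −0.37 against mock, and the blood and immune markers −0.28 and −0.28. The part of these markers in the results was not tested.

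The siKrt15 array had 67.3% of its 59305 non-control spots well above background, siNeg 69.2% and mock 69.0%. Its 75th percentile signal was 216.0, against 180.4 in siNeg and 191.1 in mock. All 3 arrays came from 1 slide and 1 scan, with 0 saturated spots. The part of the brighter siKrt15 array in the results was not tested, and other ways of scaling were tried for every gene.

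Across 10 ways of processing the arrays, each of the 10 genes stayed above 0 in both comparisons with siKrt15, some only just. The smallest values came with normexp against siNeg, at 0.02 for E2f3, 0.03 for E2f6 and 0.06 for E2f8. These lie below their error-model SDs of 0.21, 0.24 and 0.30. Foxm1 was at least 2-fold above siNeg in all 10, between 1.41 and 2.26, and above mock in 9, between 0.90 and 2.12. E2f2 was in 9 of 10 in each comparison, between 0.77 and 2.14 against siNeg and between 0.80 and 1.91 against mock. Mybl2 was in 9 of 10 in each, between 0.89 and 1.63 and between 0.99 and 1.59. E2f1 passed 2-fold in 1 against siNeg and 2 against mock, and E2f7 in 2 against each. The lowest values of E2f2 came with normexp background correction, and the lowest of Mybl2 when its background probe was let in.

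**Figure D4:**
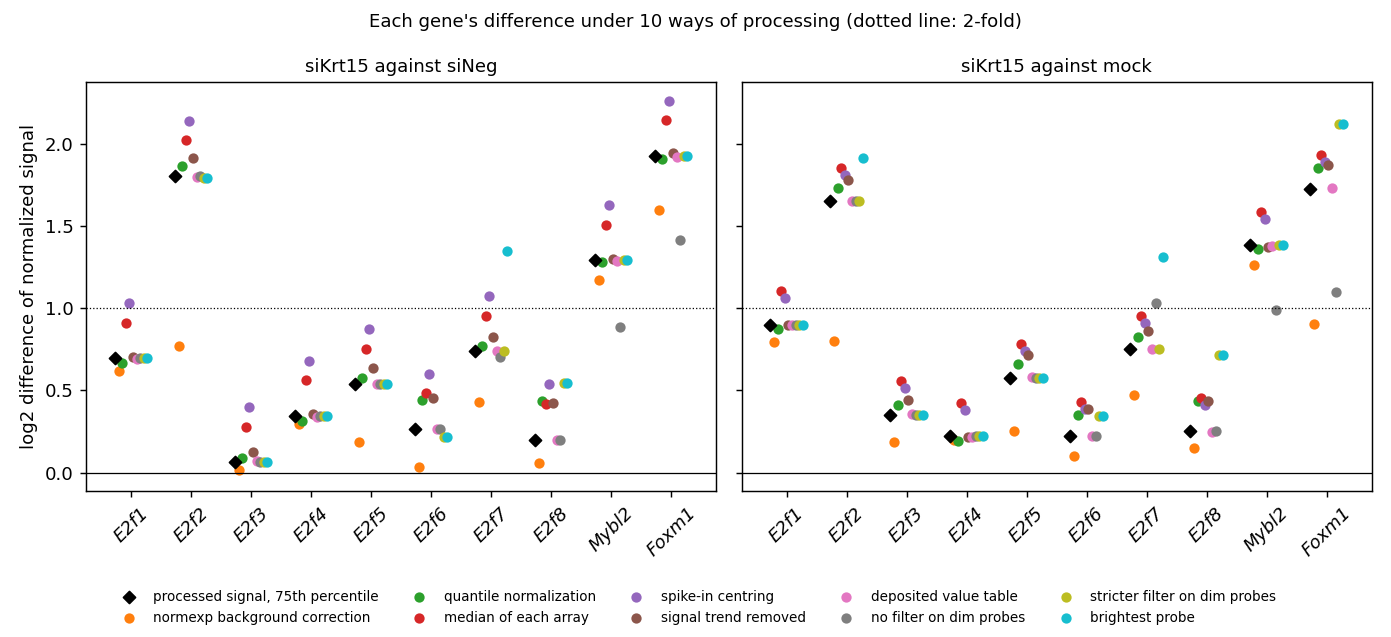
Log2 difference of each gene (vertical axis) in siKrt15 against siNeg (left) and against mock (right) under 10 ways of processing; black diamonds are the values given in the text and the dotted line is 2-fold. Foxm1, E2f2 and Mybl2 lie above the dotted line in at least 9 of 10 settings on each side, and E2f3, E2f4, E2f5, E2f6 and E2f8 stay below it in all 10.

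For E2f1, Mybl2 and Foxm1 the genes with the most similar pattern over the 3 arrays were listed, by Euclidean distance between centred log2 profiles among 12675 genes. For E2f1 they were Fkbp1b at 0.00489, Hmgb3 at 0.0131 and Gm31645 at 0.0175. For Mybl2 they were Bard1 at 0.0129, Prr15l at 0.0130 and Slfn10-ps at 0.0308. For Foxm1, on its brightest probe, they were Mdfi at 0.0156, Cdca5 at 0.0208 and Melk at 0.0368. With 3 arrays, many genes can share a pattern, and no function is read from it.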

How the data were processed

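Total RNA was amplified and labelled with Cy3 for 1-colour Agilent arrays, as given in the labels' protocols. Scans were read with Agilent Feature Extraction 11.5.1.1 per the submitters' processing notes, and the protocol was GE1_1105_Oct12 with probe coordinates on mm9, per the file headers. The deposited scanner files hold, for each spot, a background-subtracted processed signal, an intensity on a linear scale. The authors' deposited value table holds log2 values. It was compared with the 75th-percentile-scaled log2 signal of the scanner files. After each array's median difference (−0.0069 to −0.0055) was subtracted, 95.5% to 95.8% of its values lay within 0.05 of that signal. Its medians were −3.72 for siKrt15, −3.51 for siNeg and −3.52 for mock. These values settle its scale, direction and lack of gene centring.

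From the scanner files, control spots and outlier spots (68 to 85 per array) were left out, spots of a probe were averaged on the log2 scale and the 75th percentile of each array was subtracted. Only probes flagged well above background, and none saturated, on both arrays entered a comparison. Probes were named through RefSeq's table for GRCm38.p6, 32989 by accession, 10224 by symbol and 520 by synonym; another 12865 kept the name in the file and entered the scaling but no gene count. Differences of a gene's measured probes were averaged, and a gene was counted at 2-fold. Where only 1 array was above background, the bound used the higher of the dim signal and that array's lowest signal well above background. The error is the scanner's error-model SD, averaged over a gene's measured probes, and precision is limited by having 3 arrays.

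Named genes were the 10 members, Krt15, from each list up to 4 genes furthest from siNeg in siKrt15 (lists of 5 or fewer whole), and the 3 nearest patterns of E2f1, Mybl2 and Foxm1. Members and lists were chosen with earlier results of these data known, and the lists give no independent support. Genes at the end of a list's range were chosen after their values were seen. Alternatives were normexp (limma 3.58.1, R 4.3.3), quantile, median and spike-in scaling (9 spike-in probes), removal of a signal trend, the deposited table, other filters on dim probes, the brightest probe and a 1.5-fold threshold. The procedure was tested on simulated data.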

Additional observations from a re-analysis of the deposited data

How the results depend on the processing

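No paired analysis was possible because each group has 1 array, and for the same reason no array could be left out in turn. No direction reversed for a member under any alternative in the comparisons with siKrt15. Against siNeg, 3 of the 10 passed 2-fold, where 1.70% of all genes did. With spike-in scaling 5 did, where 3.91% of all genes did, and at the 1.5-fold threshold 5 did, where 4.80% of all genes did. The count was 4 with the brightest probe (E2f7 added, beside 2.02% of all genes) and 2 with normexp (Mybl2 and Foxm1, beside 0.479%). It was 2 when dim probes were kept (E2f2 and Foxm1, beside 1.92% of all genes). Against mock, 3 genes were 2-fold higher, beside 2.18% of all genes, and 1 with normexp (Mybl2, beside 0.595%). When dim probes were kept the count stayed at 3 but the genes were E2f2, E2f7 and Foxm1, beside 2.60% of all genes. The count was 4 with median or spike-in scaling (E2f1 added, beside 3.42% and 3.08% of all genes). It was 4 with the brightest probe (E2f7 added, beside 2.60%), and 5 at 1.5-fold, beside 5.83%. The activators' median of 0.69 against siNeg became 0.91 with median scaling and 1.03 with spike-in scaling. The repressors' median of 0.35 against siNeg became 0.18 with normexp, 0.54 for the brightest probe or the stricter filter, 0.56 with median scaling and 0.68 with spike-in scaling, and that of 0.25 against mock became 0.58 under the stricter dim-probe filter and 0.58 for the brightest probe. The late factors' median of 1.61 against siNeg became 1.38 with normexp, 1.82 with median scaling, 1.94 with spike-in scaling and 1.15 when dim probes were kept. Against mock their 1.55 became 1.08 with normexp and 1.04 with no filter. Median scaling and spike-in scaling move all genes alike: the median of all genes against siNeg was 0.14 and 0.26, in place of −0.08, and without the filter it was −0.20. Both late factors lay above all repressors in 9 of 10 settings in each comparison. The exceptions were the brightest probe against siNeg, with E2f7 at 1.34 and Mybl2 at 1.29, and no filter against mock, with E2f7 at 1.03 and Mybl2 at 0.99. For the 10 genes and Krt15 over all 3 comparisons, siNeg against mock included, 249 alternative values moved by less than the error-model SD and 48 by more. Against siNeg, a member moved by more in between 1 setting (E2f6) and 4 settings (E2f7 and Foxm1). Against mock this ran from 0 settings, as for E2f1, to 4 for Foxm1. Dim probes, such as those of E2f8 and the second Foxm1 probe, limit what signal over background can show.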
